A study of Rattus norvegicus with 36 samples.

Results

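Extraocular muscle (EOM), the set of small muscles that turn the eye, was compared in the rat between postnatal day 7 and postnatal day 0. The comparison took the 3 EOM arrays titled day 7 and the 3 titled day 0, which are 6 of the 36 arrays in the series. All 36 were hybridised with total RNA on the RG-U34A array, a 1-colour Affymetrix design that reads each transcript through a probe set. The remaining arrays hold EOM at day 14, 21, 28 and 45 and a leg sample, gastrocnemius and soleus together, at the same 6 ages, with 3 arrays per muscle and age. The labels name no treatment, genotype, strain or pooling. Nothing in them ties the arrays of a group to separate animals, and a p-value here therefore speaks only of array-to-array spread, part or all of which may be technical.

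Skeletal muscle fibres are born with embryonic and perinatal myosin heavy chains and later replace them with adult fast or slow ones. The same weeks bring the change from the fetal to the adult acetylcholine receptor at the nerve-muscle junction, myelination of the motor nerve and a large increase in mitochondria. EOM is unusual among rat muscles because its adult fibres also carry a myosin of their own, Myh13, and keep some of the developmental myosins. Because the samples are whole tissue, fewer cells of a type and less RNA per cell cannot be told apart in any of the values below.

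Values are intensities as deposited, set to 100 where they were lower and then taken to log2, so that 6.64 is the lowest possible value and a difference of 1 is a doubling. Of 8799 probe sets, 6672 were bright enough to test, and they covered 3889 genes with 1 symbol, where the probe set with the highest mean over all arrays stands for the gene. No 2 arrays held identical values, and the trimmed mean of every array lay between 1501.1 and 1502.3. Between 16.5% and 21.7% of the values of an EOM array of day 0 or 7 were at or under the floor. Correlations of log2 values within an age ran from 0.919 to 0.944 at day 0 and from 0.937 to 0.952 at day 7. The arrays numbered 3 stood apart: the day 0 array correlated with the day 7 array of that number at 0.944, higher than with either other array of its own age (0.919 and 0.933). A control probe set in the middle of the β-actin transcript read 3138 and 5430 on the other day 0 arrays against 19926 on the day 0 array numbered 3, and 9332, 5707 and 16350 at day 7. The same control for GAPDH read 14826, 15078 and 20716 at day 0 and 18395, 9884 and 16333 at day 7. For GAPDH the day 7 array numbered 3 lay between the others. The number of arrays limits the precision of every value.

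The muscle identity of the samples was checked on a list of 11 tested skeletal muscle genes. None passed the test at day 7 against day 0, none did so at an unadjusted p under 0.05 in limma, and their summed intensity was 81324 to 94014 at day 0 and 73833 to 99904 at day 7. Desmin (Des), the intermediate filament of the muscle fibre, read 12.06, 12.50 and 12.94 at day 0 and 12.57, 12.43 and 13.06 at day 7. Des was chosen after its values were seen. The creatine kinase gene Ckm, chosen in the same way, read 13.05, 13.15 and 12.99 at day 0 and 13.26, 6.64 and 12.30 at day 7. On 1 day 7 array it was thus at the floor. Its probe set was also at the floor on all EOM arrays of day 21 and 28. In leg it was at the floor on 2 arrays at day 0 and on 2 at day 7. It therefore does not serve as a check of muscle identity, although the summed intensity above includes it. The list also holds the actin gene Acta1 and the troponin T gene Tnnt3. Their differences had SEs of 0.99 and 1.04, so the absence of a call says little for them.

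Over the first week, the adult fast myosins Myh2, Myh4 and Myh13, 7 of 26 tested genes of fatty acid use and the mitochondrial creatine kinase Ckmt2 rose in EOM, while the craniofacial transcription factor Alx1, the embryonic globin Hbe1, the mast cell tryptase Tpsab1 and the metabolic enzymes Cdo1 and Acot1 fell. The test was limma with Benjamini-Hochberg adjustment at 0.05 over all 6672 probe sets. It called 125 probe sets (1.87%), of which 82 (1.23%) rose and 43 (0.644%) fell. Of the 3889 genes, 56 (1.44%) rose and 29 (0.746%) fell, and in all 85 the 3 arrays of one age lay wholly above the 3 of the other, as they did in 848 (21.8%) of all 3889 genes. The difference reached 2-fold in 86 of the 125 probe sets. The median difference over all genes was -0.08, with 1573 genes (40.4%) higher and 2304 lower at day 7. Every list count below is to be read beside these shares: 1.44% rose, 0.746% fell and 40.4% were higher. Scaling each array to the same median moved the median of all probe sets from -0.07 to 0.05 and turned the balance to 2151 genes higher and 1738 lower, so list medians are best read against the median of all genes. Without the arrays numbered 3 at both ages, 53 probe sets passed. By gene, 30 of the 85 calls held without those arrays, 28 held whichever single EOM array was left out, and all 85 kept their direction.

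**Figure D1:**
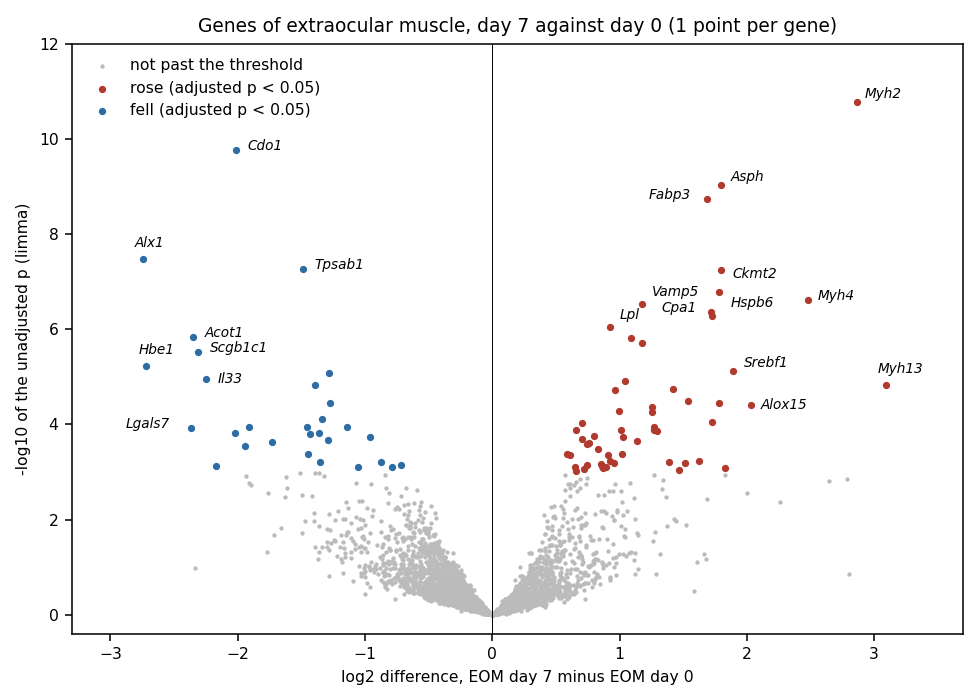
Log2 difference between day 7 and day 0 in EOM (horizontal axis) against -log10 of the unadjusted limma p (vertical axis), with 1 point for each of 3889 genes. Red points are the 56 genes that rose and blue points the 29 that fell; Myh2 stands highest and Myh13 farthest to the right.

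The largest rises belonged to the adult fast myosin heavy chains, the motor proteins that set how fast a fibre contracts. Myh13, the heavy chain of EOM, read 8.54, 7.49 and 8.44 at day 0 and 11.58, 11.51 and 10.66 at day 7. All day 7 arrays lay above all day 0 arrays, and the difference of 3.09 ± 0.60 (SE) corresponds to 8.51-fold (adjusted p = 0.00278). Myh2, the heavy chain of fast oxidative IIA fibres, read 8.93, 8.96 and 10.19 at day 0 and 12.47, 11.70 and 12.52 at day 7. Its ages did not overlap either, although the day 0 array numbered 3 was the highest of its group. The rise was 2.87 ± 0.27, or 7.30-fold (adjusted p = 3.31e-08). Myh4, the heavy chain of the fastest limb fibres (IIB), read 7.18, 7.97 and 9.68 at day 0 and 10.80, 10.90 and 10.55 at day 7, a rise of 2.48 ± 0.37 (adjusted p = 0.000105). Again the day 0 array numbered 3 was the highest of its age. Without the arrays numbered 3 at both ages all 3 myosins still passed, with adjusted p of 0.0122 for Myh13, 2.72e-08 for Myh2 and 3e-07 for Myh4. The SEs of Myh2 and Myh4 pool the spread of all 36 arrays. Their SDs in EOM were 0.72 and 1.28 at day 0, against 0.10 and 0.17 at day 14. The SE and p of both thus understate the spread at day 0. Among the 3, Myh13 passed in every alternative that could be run for it.

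These 3 genes lie in 1 cluster on rat chromosome 10, in the order Myh3, Myh2, Myh1, Myh4, Myh8, Myh13, and the bases before their annotated starts are shown because they are the members that rose. Each line is the 120 bases before the start, 5′ to 3′ on the plus strand of the RefSeq annotation of GRCr8, from chr10:52355619-52355738 for Myh2, chr10:52422028-52422147 for Myh4 and chr10:52511653-52511772 for Myh13. Capitals mark TATAAA, the letters of a TATA box, and CANNTG, the letters bound by myogenic factors such as MyoD.
Myh2: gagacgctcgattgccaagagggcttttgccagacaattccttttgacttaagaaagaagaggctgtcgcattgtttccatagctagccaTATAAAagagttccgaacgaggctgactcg
Myh4: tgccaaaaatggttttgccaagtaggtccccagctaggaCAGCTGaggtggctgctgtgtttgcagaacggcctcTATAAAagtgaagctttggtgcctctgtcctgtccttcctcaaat
Myh13: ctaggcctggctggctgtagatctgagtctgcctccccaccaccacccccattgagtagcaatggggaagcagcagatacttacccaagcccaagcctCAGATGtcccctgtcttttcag
TATAAA begins 30 bases before the start in Myh2 and 45 before it in Myh4, and was not found in this window of Myh13. CANNTG begins 81 bases before the start in Myh4 and 22 before it in Myh13. Both strands were searched. Among 33469 RefSeq promoter windows of 120 bases, 4.38% hold TATAAA and 39.4% hold CANNTG, so a CANNTG match is common. The windows and motifs were chosen after the values of these genes were seen, and a match is a description of letters only. Whether each annotated start is where transcription begins was not tested, so the Myh13 window may not be a promoter.

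The other myosin heavy chains gave no call. Myh1, the heavy chain of fast IIX fibres, read 11.25, 10.93 and 10.66 at day 0 and 10.60, 10.51 and 10.26 at day 7, a difference of -0.49 ± 0.34 (adjusted p = 0.696). The embryonic chain Myh3 read 13.83, 13.74 and 13.71 at day 0 and 14.17, 13.40 and 13.94 at day 7, with ages that overlapped (0.08 ± 0.39, adjusted p = 0.987). Its sign depends on the scaling and is negative after quantile normalization. The sign also depends on the probe set. Other Myh3 probe sets differed by 0.22, 0.32, 0.69 and -0.80, and none passed. The one at -0.80 was at the floor on all 3 day 7 arrays. The perinatal chain Myh8 read 13.07, 13.15 and 13.68 against 13.87, 14.35 and 13.73, a difference of 0.69 ± 0.29 that did not pass (adjusted p = 0.331). The slow chain Myh7 differed by -0.18 ± 0.21 (adjusted p = 0.884). Myosin genes are close in sequence, and how far their probe sets read each other's transcripts was not tested.

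The 3 risers had still higher means at the later ages of EOM. The mean of Myh13 was 8.16 ± 0.58 (SD, n = 3) at day 0, 11.25 ± 0.51 at day 7 and 14.24 at day 14, and that of Myh4 went from 8.28 ± 1.28 to 10.75 ± 0.18 and then 14.34. Myh2 stood at 9.36 ± 0.72, 12.23 ± 0.46 and 14.34 at the same ages. These means are a description, and the differences after day 7 were not tested here.

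**Figure D2:**
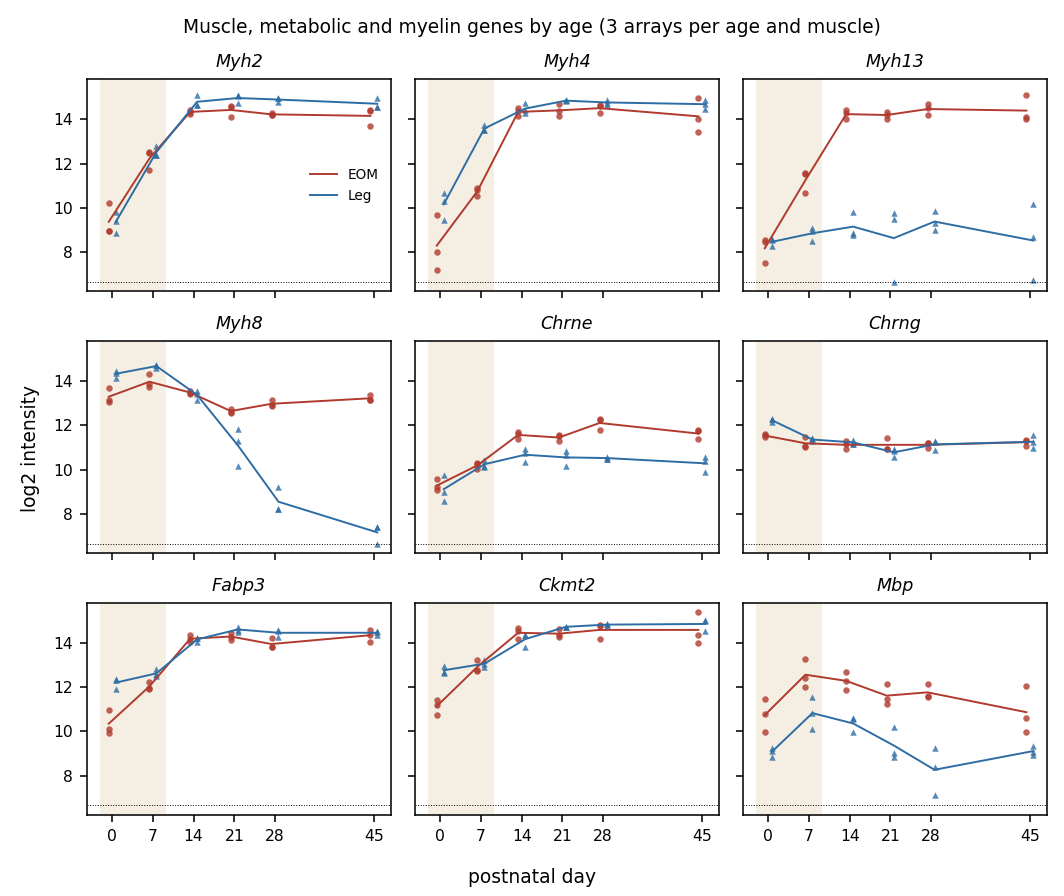
Log2 intensity (vertical axis) against postnatal day (horizontal axis) for 9 genes, with 1 point per array, lines through the means of 3 arrays, red circles for EOM and blue triangles for leg; the shaded band marks day 0 and 7 and the dotted line the floor. Myh13 in EOM goes from a mean of 8.16 at day 0 to 11.25 at day 7, Myh2 in EOM from 9.36 to 12.23, and Mbp in EOM is highest at day 7.

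Of 15 tested genes of the adult fast fibre list, these 3 rose, beside 1.44% of all genes, and none fell, with a list median of 0.31 against -0.08 over all genes. No other member passed. The SE was 2.07 for Atp2a1, 1.38 for Ckm, 1.04 for Tnnt3, 1.01 for Casq1 and 0.99 for Acta1. The test therefore says little about whether these members changed. The fast troponin I gene Tnni2 read 12.98, 13.02 and 13.10 at day 0 and 13.66, 13.14 and 13.41 at day 7 (adjusted p = 0.549). Parvalbumin (Pvalb), the calcium buffer of fast fibres, was higher on all 3 day 7 arrays (10.37, 10.40 and 10.51 against 9.28, 9.32 and 9.86) but did not pass (0.94 ± 0.33, adjusted p = 0.197). Of 9 developmental isoform genes none passed in limma, with 1 higher and 1 lower at an unadjusted p under 0.05, and the list median was 0.08. Among 11 myogenic regulators none passed and none reached an unadjusted p under 0.05. Myod1, which commits cells to the muscle lineage, differed by -0.34 ± 0.26 (adjusted p = 0.747), and myogenin (Myog), which drives their differentiation, by -0.05 ± 0.31 (adjusted p = 0.990).

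Phospholamban (Pln), the inhibitor of the sarcoplasmic reticulum calcium pump in slow and cardiac muscle, was the member of the slow fibre list (10 tested) and of the excitation and calcium list (21 tested) that rose. It read 7.41, 7.64 and 7.45 at day 0 and 9.04, 8.99 and 8.64 at day 7, with no overlap, a rise of 1.39 ± 0.36 (adjusted p = 0.0392). The call was lost when any single EOM array was left out, with adjusted p up to 0.159. The excitation and calcium list had 17 of 21 members higher and a median of 0.21, and the slow fibre list a median of -0.08. Asph, whose locus also encodes the sarcoplasmic reticulum proteins junctin and junctate, read 10.34, 10.12 and 10.49 at day 0 and 12.13, 12.35 and 11.86 at day 7. Its rise of 1.80 ± 0.20 (adjusted p = 8.67e-07) passed under every alternative that could be run for it. Hspb6, a small heat shock protein abundant in muscle, read 12.10, 11.78 and 11.98 at day 0 and 13.87, 13.59 and 13.75 at day 7, a rise of 1.78 ± 0.26 (adjusted p = 8.39e-05). It was the 1 member called among 21 tested heat shock and chaperone genes, whose median was -0.13.

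At the nerve-muscle junction 1 of 14 tested genes rose and 1 fell, with a list median of 0.02. Chrne, the acetylcholine receptor subunit that marks the adult receptor, read 9.05, 9.56 and 9.19 at day 0 and 10.26, 10.04 and 10.28 at day 7. The ages did not overlap, and the rise was 0.92 ± 0.24 (adjusted p = 0.0392). Agrin (Agrn), the nerve-derived organiser of receptor clusters, read 12.81, 12.68 and 12.71 at day 0 and 11.93, 12.13 and 11.99 at day 7 and fell by 0.71 on the log2 scale (SE 0.19, adjusted p = 0.0437). The other Agrn probe set differed by -0.64 ± 0.22 and did not pass (adjusted p = 0.176). Agrn lost its call without any single EOM array, with adjusted p up to 0.169, and Chrne without any array except the day 0 array numbered 2, with adjusted p up to 0.192. The fetal receptor subunit Chrng read 11.47, 11.55 and 11.62 at day 0 and 11.48, 11.06 and 11.02 at day 7, ages that overlapped on 1 array (-0.36 ± 0.17, adjusted p = 0.450). Chrna1, the subunit common to both receptors, differed by 0.08 ± 0.18 (adjusted p = 0.955).

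Genes for the use of fatty acids gave the largest number of calls of any list: 7 of 26 tested rose, beside 1.44% of all genes, none fell, 23 were higher at day 7 and the median was 0.43. Fabp3, which carries fatty acids in muscle cytoplasm, read 9.94, 10.12 and 10.99 at day 0 and 11.97, 11.91 and 12.23 at day 7. No day 7 array fell in the range of day 0, and the rise was 1.69 ± 0.20, or 3.23-fold (adjusted p = 1.49e-06). Acadm, the medium-chain acyl-CoA dehydrogenase of mitochondrial β-oxidation, read 10.32, 10.49 and 10.50 at day 0 and 11.30, 11.62 and 11.65 at day 7, a rise of 1.09 ± 0.18 (adjusted p = 0.000487). Lipoprotein lipase (Lpl), which frees fatty acids from circulating lipoproteins, rose by 0.92 ± 0.15 (adjusted p = 0.000317), from 12.21, 11.92 and 11.95 to 12.92, 13.07 and 12.86. All 3 Lpl probe sets passed, the others with rises of 0.94 ± 0.17 and 0.73 ± 0.19.

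Etfdh, which hands the electrons of β-oxidation to the respiratory chain, rose by 0.96 ± 0.19 (adjusted p = 0.00324). Its other probe sets differed by 1.37 ± 0.26, which passed, and 0.59 ± 0.25, which did not (adjusted p = 0.349). Acsl1, which activates long-chain fatty acids, rose by 0.85 ± 0.22 (adjusted p = 0.0416). Its other probe sets differed by 0.91, which passed, and by 1.07 and 0.12, which did not (adjusted p of 0.179 and 0.985). Hadhb, a subunit of the trifunctional β-oxidation enzyme, rose by 0.74 ± 0.18 (adjusted p = 0.0218), and Eci1, an isomerase of the same pathway, by 0.72 ± 0.20 (adjusted p = 0.0471). Acsl1 lost its call without any single EOM array, and Hadhb and Eci1 each lost theirs without 5 of the 6. With single arrays left out 4 or 5 members passed, without the arrays numbered 3 there were 4, and with the 6 arrays fitted alone there were 0, where 25 probe sets passed in all. Pdk4, the kinase that turns pyruvate away from the mitochondrion, had a difference of 2.00 but did not pass (adjusted p = 0.0985). The liver-type carnitine transferase Cpt1a, at -0.94 (adjusted p = 0.171), was the lowest of the list.

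The respiratory chain and citrate cycle moved by small steps. Of 35 tested members of the list 3 rose, beside 1.44% of all genes, and none fell, 33 were higher at day 7, 16 were higher at an unadjusted p under 0.05, and the median was 0.43. Quantile normalization left 30 of 35 higher. Ckmt2, the mitochondrial creatine kinase of striated muscle, read 10.76, 11.20 and 11.44 at day 0 and 12.79, 12.75 and 13.25 at day 7, a rise of 1.80 ± 0.25 (adjusted p = 3.22e-05). Every day 7 array lay above every day 0 array. Its second probe set rose by 1.74 ± 0.17 (adjusted p = 3.31e-08). Sdha, the catalytic subunit of succinate dehydrogenase, rose by 0.71 ± 0.17 (adjusted p = 0.0178), and Atp5pf, a coupling subunit of ATP synthase, by 0.70 ± 0.16 (adjusted p = 0.0113). Sdha lost its call without 3 single arrays (day 0 replicate 2, day 7 replicates 2 and 3), with adjusted p up to 0.186. Atp5pf lost it without day 7 replicate 3 (adjusted p = 0.0806). The respiratory chain subunits Cox7b and Ndufv2, which were not on the list and were chosen after their values were seen, rose by 0.80 ± 0.19 (adjusted p = 0.0162) and 0.87 ± 0.23 (adjusted p = 0.0452). Cox7b lost its call without 4 of the 6 single arrays (day 0 replicates 2 and 3, day 7 replicates 1 and 3) and Ndufv2 without any of them, with adjusted p up to 0.0902 and 0.216.

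Glycolysis and glycogen genes had 2 risers among 22 tested, beside 1.44% of all genes, and a median of 0.24. Eno3, the muscle enolase, read 12.82, 13.01 and 13.10 at day 0 and 13.54, 13.46 and 14.15 at day 7 (0.74 ± 0.20, adjusted p = 0.0427). Pgm1, which links glycogen to glycolysis, rose by 0.61 ± 0.15 (adjusted p = 0.0318). The other Pgm1 probe sets differed by 0.67 and 0.39 and did not pass (adjusted p of 0.202 and 0.883). The calls of Eno3 and Pgm1 were each lost without 5 of the 6 single EOM arrays, with adjusted p up to 0.296 and 0.220. In the cholesterol synthesis list, Srebf1, a master regulator of lipid synthesis genes, was the 1 riser of 15, from 9.26, 7.86 and 7.86 to 10.39, 10.31 and 9.94 (1.89 ± 0.35, adjusted p = 0.00180). The list median was 0.05, and no synthesis enzyme on it passed.

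Other large rises lay outside these pathways. Alox15, a lipoxygenase of leukocytes and epithelia, read 10.91, 10.96 and 10.98 at day 0 and 13.00, 12.92 and 13.03 at day 7, with little spread at either age (2.03 ± 0.42, adjusted p = 0.00521). Its second probe set rose by 2.83 ± 0.53 (adjusted p = 0.00182), and the representative did not pass without the arrays numbered 3 (adjusted p = 0.0776). Cpa1, the gene of a pancreatic carboxypeptidase, rose from 8.22, 8.66 and 9.28 to 10.10, 10.31 and 10.94 (1.73 ± 0.27, adjusted p = 0.000194). Arih2, a ubiquitin ligase, rose by 1.72 ± 0.38 (adjusted p = 0.0110), but its other probe set differed by 0.24 ± 0.47 (adjusted p = 0.954), and the call was lost without 3 single arrays (day 0 replicates 1 and 2, day 7 replicate 3). Pxmp2, a channel of the peroxisome membrane that the naming rule did not pick and that was chosen after its values were seen, rose by 1.72 ± 0.27 (adjusted p = 0.000173).

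The ribosomal protein list had 2 risers among 36 tested, beside 1.44% of all genes, and a median of 0.18. At day 7, 26 members were higher, a count that became 33 under median scaling and 23 under quantile normalization. Rps3 read 11.44, 10.78 and 13.19 at day 0 and 13.72, 13.20 and 13.82 at day 7 (1.78 ± 0.37, adjusted p = 0.00496). Rpl3 rose by 1.30 ± 0.30 (adjusted p = 0.0138). Rpl7a, a ribosomal protein gene outside the list and chosen after its values were seen, rose by 1.25 ± 0.26 (adjusted p = 0.00568), a call lost without the day 0 array numbered 1 (adjusted p = 0.0765). The other probe sets of Rps3 and Rpl3 did not move with them, at 0.12 ± 0.26 for Rps3 and 0.04 ± 0.19 for Rpl3, and neither list member was counted once probe sets in the top 5% of intensities were left out. Rps3 lost its call without the day 0 array numbered 2 (adjusted p = 0.0895), and Rpl3 without 4 single arrays (day 0 replicates 1 and 2, day 7 replicates 1 and 3).

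On the Schwann cell list, which holds the main myelin genes, 2 members rose. Mbp, the basic protein that compacts the myelin sheath, read 11.45, 10.81 and 9.96 at day 0 and 12.40, 12.02 and 13.28 at day 7, a rise of 1.83 ± 0.49 (adjusted p = 0.0452). Mal, a membrane protein of myelinating cells, read 10.86, 10.80 and 9.56 at day 0 and 11.16, 11.23 and 11.88 at day 7 (1.02 ± 0.26, adjusted p = 0.0313). In both genes the array numbered 3 was the lowest at day 0 and the highest at day 7. Without those arrays neither passed (adjusted p of 0.644 for Mbp and 0.740 for Mal). Leaving out single arrays, Mbp lost its call without day 0 replicate 2 or 3 or day 7 replicate 1 or 3, and Mal without either array numbered 3. Mbp and Mal were the 2 calls among 15 tested Schwann cell markers, the list of the glia that wrap motor axons, beside 1.44% of all genes that rose. Ugt8, the enzyme that makes the galactolipids of myelin, was not on the list and was chosen after its values were seen; it rose by 1.51 ± 0.40 (adjusted p = 0.0392), and without the arrays numbered 3 its adjusted p was 0.717. The list median was 0.41, and its summed intensity was 37519 to 41311 at day 0 and 47036 to 57466 at day 7. Sox10, a defining factor of these glia, differed by -0.34 ± 0.42 (adjusted p = 0.888). Of 16 axon and nerve terminal markers none passed in limma, with 2 lower at an unadjusted p under 0.05, and their median was 0.00.

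In the matrix, 1 of 25 proteoglycan and remodelling genes and 1 of 18 collagen and basement membrane genes rose. Thbs4, a thrombospondin of tendon and muscle matrix, read 9.98, 10.17 and 10.46 at day 0 and 11.26, 11.50 and 11.60 at day 7 (1.25 ± 0.27, adjusted p = 0.00700). Without the day 0 array numbered 1 its adjusted p was 0.0564. Col15a1, a collagen of the basement membrane of muscle and capillaries, rose by 0.91 ± 0.23 (adjusted p = 0.0318), a call lost without 5 of the 6 single arrays. Aqp1, the water channel of capillary endothelium, rose from 10.73, 10.60 and 9.18 to 11.56, 11.73 and 11.48 (1.42 ± 0.28, adjusted p = 0.00322) and was chosen after its values were seen. Its adjusted p without the arrays numbered 3 was 0.0895. None of 12 endothelial markers passed in limma, with 1 higher at an unadjusted p under 0.05.

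**Figure D3:**
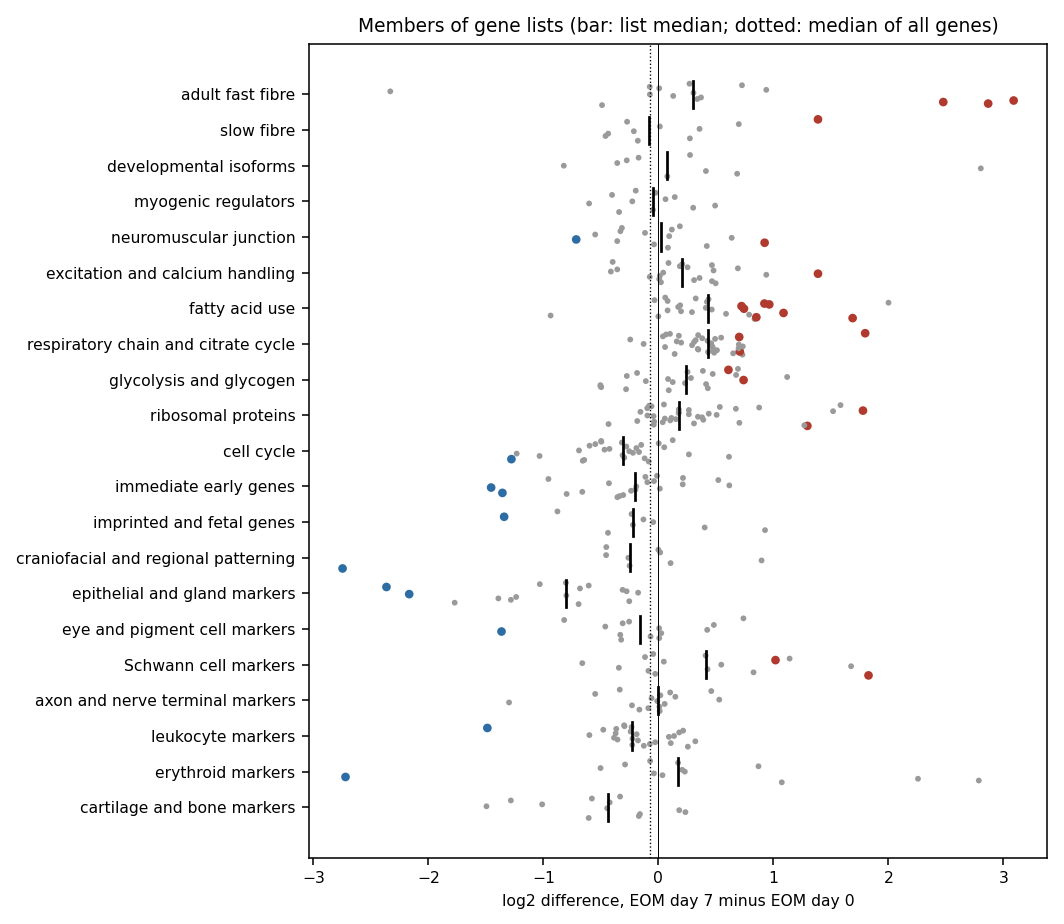
Log2 difference between day 7 and day 0 in EOM (horizontal axis) for the tested members of 21 gene lists (vertical axis), with 1 point per gene, red where it rose, blue where it fell and grey where it did not pass the test; black bars are list medians and the dotted line is the median of all genes. Fatty acid use shows 7 red points and a median of 0.43, and all 16 epithelial and gland markers lie left of 0.

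Among representative probe sets the largest fall was that of Alx1, a homeobox factor of the mesenchyme that forms the face and orbit. It read 11.05, 11.23 and 11.08 at day 0 and 7.10, 8.97 and 9.06 at day 7, so that the day 0 arrays lay together and day 7 replicate 1 lay near the floor. Alx1 fell by 2.75 on the log2 scale (SE 0.37, adjusted p = 2.22e-05) and passed whichever single array was left out. This SE pools the spread of all 36 arrays, including the leg arrays, where Alx1 had no spread. The SDs of Alx1 in EOM were 0.10 at day 0 and 1.11 at day 7, so the SE and p understate the spread at day 7. Alx1 was the 1 call among 9 tested craniofacial and regional patterning genes, whose median was -0.25. In the 3 leg arrays of each age Alx1 was at the floor. By day 14 its mean in EOM was 6.98.

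Epithelial and gland markers were lower as a group. Of 16 tested, 2 fell, beside 0.746% of all genes, none rose, all 16 were lower at day 7 in the main and both other scalings, 9 were lower at an unadjusted p under 0.05, and the median was -0.80. Their summed intensity was 41127 to 56548 in EOM at day 0 and 14968 to 32451 at day 7. In leg it was 11528 to 15969 at day 0 and 7976 to 12775 at day 7. The leg test also called 2 of the 16 as falling, beside 0.206% of all genes. In leg 5 members were higher at day 7, and the list median was -0.30. The array numbered 3 had the lowest sum of each age in EOM. Lgals7, a galectin of stratified epithelia, read 12.03, 12.12 and 11.66 at day 0 and 9.99, 9.95 and 8.77 at day 7 (-2.36 ± 0.54, adjusted p = 0.0129). Lcn2, a secreted lipocalin of epithelia and neutrophils, read 12.24, 12.31 and 12.11 against 10.32, 10.42 and 9.42 (-2.17 ± 0.58, adjusted p = 0.0438). In both genes the ages lay well apart. Lcn2 lost its call without any single EOM array, with adjusted p up to 0.204, and Lgals7 without day 0 replicate 1 or 2 or day 7 replicate 3, with adjusted p up to 0.115. Neither passed without the arrays numbered 3 (adjusted p of 0.315 for Lcn2 and 0.151 for Lgals7). A floor at 300 gave 7 calls on this list and a floor at 30 gave 0.

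No representative keratin probe set on the list passed. The simple epithelial keratin Krt8 read 12.36, 12.29 and 11.87 at day 0 and 11.09, 11.39 and 9.87 at day 7 (-1.39 ± 0.38, adjusted p = 0.0545). The basal keratins Krt5 and Krt14 differed by -1.77 ± 0.86 (adjusted p = 0.450) and -1.28 ± 0.45 (adjusted p = 0.186). In these 3 genes the arrays of day 7 all lay below those of day 0. Krt19 differed by -0.80 ± 0.48 (adjusted p = 0.614). Krt18 had a representative probe set that did not pass, whereas its other probe set read 11.84, 11.97 and 11.84 at day 0 and 10.28, 10.45 and 9.19 at day 7 and passed (-1.91 ± 0.38, adjusted p = 0.00392). These keratins were chosen after their values were seen.

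Other falls were those of Scgb1c1, Il33, Cp and Pax6. Scgb1c1, a secretoglobin of nasal and glandular epithelium, read 9.28, 9.25 and 9.31 at day 0 and 6.90, 7.36 and 6.64 at day 7, where 1 array was at the floor (-2.31 ± 0.40, adjusted p = 0.000878). Il33, an alarmin stored in epithelial, endothelial and stromal nuclei, read 11.55, 11.84 and 10.92 against 9.10, 9.22 and 9.25 (-2.25 ± 0.43, adjusted p = 0.00236), and it passed under every alternative that could be run for it. Ceruloplasmin (Cp), a copper-carrying ferroxidase, fell by 2.02 on the log2 scale (SE 0.47, adjusted p = 0.0148), but its other probe set differed by -0.57 ± 0.32 (adjusted p = 0.568). Pax6, the factor that specifies eye tissues, read 9.94, 10.31 and 9.47 at day 0 and 9.07, 8.99 and 7.56 at day 7 (-1.36 ± 0.31, adjusted p = 0.0147). It was the 1 call among 14 tested eye and pigment cell markers, whose summed intensity was 13276 to 14689 at day 0 and 8562 to 12481 at day 7, and it was at the floor in leg at both ages. The pooled SE of Pax6 also rests on those leg arrays, which had no spread. Its SDs in EOM were 0.42 at day 0 and 0.85 at day 7. Without day 0 replicate 1 or 2 or day 7 replicate 3 Pax6 did not pass, with adjusted p up to 0.188. Cp did not pass without day 0 replicate 1 or 2 or day 7 replicate 1 or 3, with adjusted p up to 0.111. What part fewer epithelial or eye cells in the day 7 samples had in these falls was not tested.

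**Figure D4:**
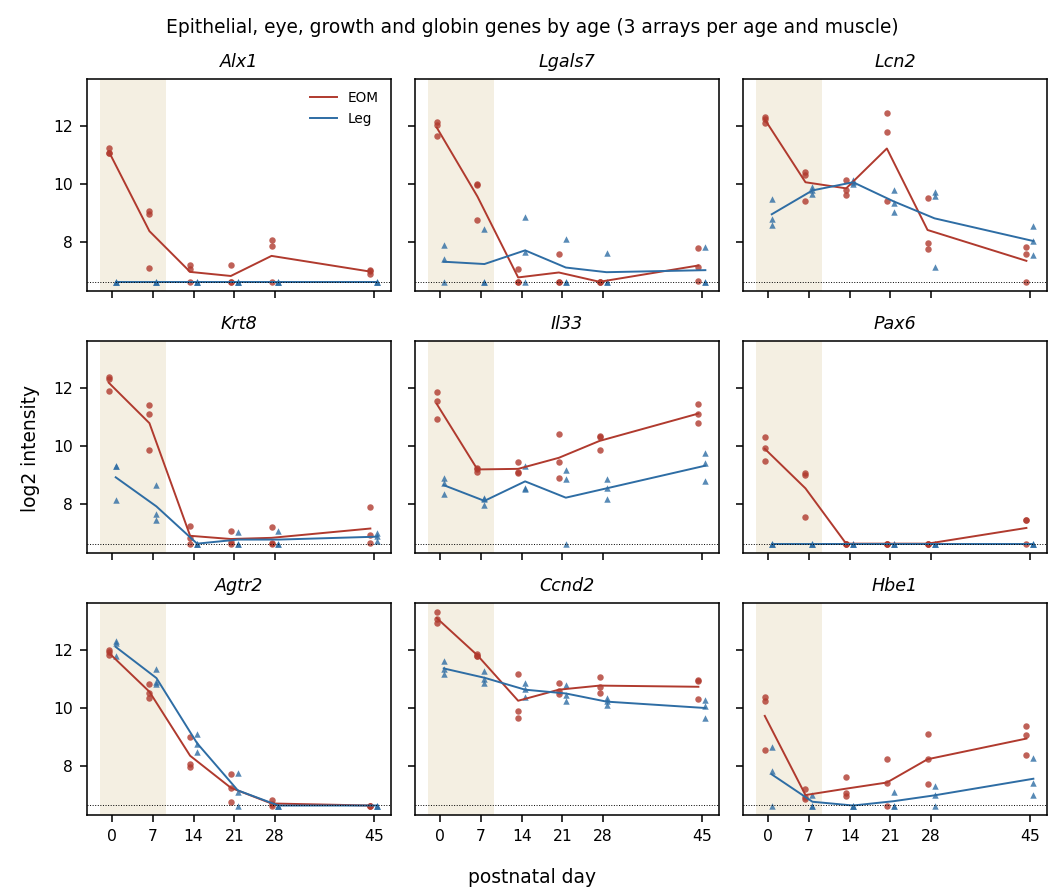
Log2 intensity (vertical axis) against postnatal day (horizontal axis) for 9 genes lower at day 7 than at day 0 in EOM, with 1 point per array, lines through the means of 3 arrays, red circles for EOM and blue triangles for leg; the shaded band marks day 0 and 7 and the dotted line the floor. Krt8 did not pass the test (adjusted p = 0.0545); Alx1 and Pax6 lie at the floor in leg, and Il33 in EOM is back at 11.11 by day 45.

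Cdo1, Acot1 and Gpc6 were also among the 12 largest falls. Cdo1, the cysteine dioxygenase that starts taurine synthesis, read 12.68, 12.50 and 12.53 at day 0 and 10.62, 10.80 and 10.26 at day 7 (-2.01 ± 0.21, adjusted p = 2.31e-07), with both probe sets past the threshold. Acot1, a thioesterase that releases fatty acids from coenzyme A, read 10.92, 10.97 and 10.91 against 8.38, 8.86 and 8.52 (-2.35 ± 0.39, adjusted p = 0.000487). Gpc6, a membrane-anchored heparan sulphate proteoglycan, fell by 1.91 on the log2 scale (SE 0.43, adjusted p = 0.0126), from 11.35, 11.57 and 11.34 to 9.17, 9.85 and 9.51. Cdo1 and Acot1 held without any single array. Gpc6 did not pass without day 0 replicate 2 or day 7 replicate 1, with adjusted p up to 0.0837.

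Rasl11b, a small GTPase, read 9.21, 9.32 and 9.13 at day 0 and 6.64, 6.64 and 8.55 at day 7, where 2 arrays were at the floor (-1.94 ± 0.47, adjusted p = 0.0233). The call was lost without 5 of the 6 single arrays (adjusted p up to 0.169), and the other probe set of the gene fell by 2.03 on the log2 scale (adjusted p = 0.00326). Odf2, a centriole and sperm tail protein, fell by 1.73 on the log2 scale (adjusted p = 0.0203), a call lost without 4 of the 6 single arrays. Its values at day 7 were 6.64, 7.31 and 6.64, so its difference is bounded by the floor.

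The cell cycle, embryonic cytoskeleton and fetal lists had 1 faller each. Ccnd2, a cyclin that carries cells into division, read 13.04, 12.92 and 13.28 at day 0 and 11.79, 11.83 and 11.79 at day 7 (-1.28 ± 0.26, adjusted p = 0.00503). Its other probe set differed by -0.32 ± 0.42 (adjusted p = 0.902). The cell cycle list had 1 faller of 28, beside 0.746% of all genes, and a median of -0.30. At day 7, 23 members were lower (21 under median scaling), beside 2304 of all 3889 genes, and 7 were lower at an unadjusted p under 0.05 in limma. Tubb2b, a tubulin of growing neurons and muscle precursors, read 13.58, 13.71 and 13.85 against 12.64, 12.88 and 11.78 (-1.28 ± 0.24, adjusted p = 0.00182), the 1 call among 12 embryonic cytoskeleton genes. Agtr2, the angiotensin receptor of fetal tissues, read 11.91, 11.97 and 11.80 at day 0 and 10.35, 10.51 and 10.80 at day 7 (-1.34 ± 0.29, adjusted p = 0.00978). The other Agtr2 probe set differed by -1.11 ± 0.38 and did not pass (adjusted p = 0.175). Without the arrays numbered 3, Ccnd2 and Tubb2b did not pass (adjusted p of 0.103 and 0.117), and Agtr2 did not pass without day 7 replicate 1 (adjusted p = 0.0677). Neither of 2 imprinted genes of fetal growth passed: Igf2 differed by 0.93 ± 0.66 (adjusted p = 0.719) and H19 by -0.44 ± 0.64 (adjusted p = 0.923). The Igf2 probe set read 9.03, 6.64 and 9.35 at day 0, with 1 array at the floor. The other 4 probe sets of the gene differed by 0.48, 0.12, -0.16 and -0.25, so the sign depends on the probe set. On the leg arrays of day 7 the Igf2 probe set read 9.45, 9.29 and 9.45, as did a second probe set of H19. By day 28 the EOM mean of the Igf2 probe set was 13.77, against 9.08 on the probe set that differed by 0.48. The 0.93 is therefore not read as a change of Igf2.

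Of 21 immediate early genes 2 fell and none rose, beside 0.746% of all genes that fell. At day 7, 16 were lower with a median of -0.20, which became 12 of 21 and -0.08 under median scaling. Myc, a driver of growth and division, read 10.33, 10.41 and 10.79 at day 0 and 9.13, 9.20 and 8.84 at day 7 (-1.45 ± 0.33, adjusted p = 0.0126). The other Myc probe set differed by -1.23 ± 0.48 and did not pass (adjusted p = 0.264). Egr1, a factor induced within minutes of a stimulus, read 14.13, 14.05 and 13.28 against 11.94, 12.46 and 12.99 (-1.36 ± 0.35, adjusted p = 0.0392). The arrays numbered 3 were the closest to each other in Egr1. Its 3 other probe sets did not pass, with differences of -0.92, -0.49 and -0.25. Myc lost its call without either array numbered 3 (adjusted p up to 0.0766), and Egr1 without day 0 replicate 1 or 2 or day 7 replicate 1 or 2 (adjusted p up to 0.260). Hmox1, which breaks down heme, was the 1 call among 28 antioxidant genes (-0.96 ± 0.23, adjusted p = 0.0169), a call lost without day 0 replicate 1 or 2 or day 7 replicate 3. The other Hmox1 probe set differed by -0.64 ± 0.35 and did not pass (adjusted p = 0.546).

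Among 13 erythroid markers 1 fell and none rose. Hbe1, an embryonic β-type globin, read 10.24, 10.37 and 8.55 at day 0 and 7.20, 6.88 and 6.93 at day 7, with no overlap. It fell by 2.72 on the log2 scale (SE 0.49, adjusted p = 0.00144). The later β-globins Hbb and Hbb-b1, chosen after their values were seen, differed by 2.79 ± 0.79 (adjusted p = 0.0635) and 2.26 ± 0.73 (adjusted p = 0.133). Hbb read 10.03, 9.11 and 9.94 at day 0 and 13.58, 11.94 and 11.91 at day 7. The 13 erythroid markers had a summed intensity of 21807 to 26554 at day 0 and 33951 to 46936 at day 7. Globin genes are near copies, and how far their probe sets read each other was not tested. Tpsab1, a tryptase of mast cells, read 11.39, 11.49 and 10.98 at day 0 and 9.78, 10.16 and 9.47 at day 7 (-1.49 ± 0.21, adjusted p = 3.22e-05). It was the 1 call among 25 leukocyte markers, whose median was -0.23.

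Lists without a call in limma bound the rest. None of 21 proteasome genes passed or reached an unadjusted p under 0.05, and their differences ran from -0.24 to 0.41. None of 9 dystrophin complex genes passed (1 higher at an unadjusted p under 0.05), nor any of 13 insulin-like growth factor genes (1 higher and 1 lower) or 9 retinoid genes (2 lower). Crabp2, a retinoic acid carrier, came closest of the retinoid genes (-1.36 ± 0.37, adjusted p = 0.0542). Nor did any of 14 adipocyte markers (1 higher), 8 smooth muscle markers (0), 10 class I antigen presentation genes (0) or 12 cartilage and bone markers pass. The cartilage and bone list had 10 of 12 members lower, 2 of them at an unadjusted p under 0.05, and a median of -0.43.

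The leg sample over the same week shows which of these changes EOM had in common with a limb muscle. In leg 54 probe sets passed (0.809%), and by gene 24 rose (0.617%) and 8 fell (0.206%). Both muscles shared 11 risers, 19.6% of the 56 in EOM and 45.8% of the 24 in leg: Myh2, Myh4, Chrne, Asph, Hspb6, Acadm, Cpa1, Vamp5, Eef1a2, Plaat3 and Ube2b, the last 4 of which lie outside the naming rule and are given because both tests called them. The 2 shared fallers, Cdo1 and Tpsab1, were 6.90% of the 29 in EOM and 25% of the 8 in leg. The leg differences were 3.17 ± 0.27 for Myh2, 3.45 ± 0.37 for Myh4, 1.13 ± 0.24 for Chrne and -1.70 ± 0.21 for Cdo1. Of the 56 EOM risers 48 were higher at day 7 in leg, and of the 29 fallers 26 were lower there; of all 3889 genes, 1660 (42.7%) were higher in leg at day 7. The median difference of the risers was 1.11 in EOM and 0.42 in leg, and that of the fallers -1.45 and -0.32; since these genes were chosen on the EOM values, larger values in EOM follow in part from that choice. The group means of the 2 comparisons share no array. Both tests took the spread of a probe set from all 36 arrays, so their calls are not independent.

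A call in EOM that is missing in leg does not show a difference between the muscles, so the difference of the 2 changes was tested directly. In limma 5 of 6672 probe sets (0.0749%) passed and 265 had an unadjusted p under 0.05. Mybpc2, the fast myosin-binding protein C, read 8.04, 7.08 and 6.64 at day 0 and 7.92, 7.55 and 7.31 at day 7 in EOM, ages that overlapped. In leg it read 8.28, 9.53 and 8.93 at day 0 and 12.69, 12.47 and 12.44 at day 7. The change was lower in EOM by 3.28 on the log2 scale (SE 0.47, adjusted p = 0.000721). Pvalb rose in leg by 3.67 ± 0.33, from 8.78, 8.74 and 8.92 to 12.60, 12.66 and 12.21, and the difference of changes was -2.74 ± 0.47 (adjusted p = 0.00397). Alx1, at the floor in leg, gave -2.75 ± 0.53 (adjusted p = 0.0171). With the 12 arrays of this test fitted alone Pvalb still passed (adjusted p = 0.00167), and Mybpc2 and Alx1 did not (adjusted p of 0.0746 and 0.203).

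The remaining 2 calls came from probe sets that do not represent their gene. A probe set of Fgfr2, a fibroblast growth factor receptor, read 9.97, 9.89 and 9.58 at day 0 and 6.94, 6.73 and 6.82 at day 7 in EOM and lay between 6.64 and 6.89 on every leg array of those ages. Its difference of changes was -2.94 ± 0.45 (adjusted p = 0.00129), whereas the representative probe set of Fgfr2 differed by -0.36 ± 0.41 in EOM (adjusted p = 0.876). The lower-reading probe set of Ckmt2 read 9.56, 9.82 and 9.68 at day 0 and 11.47, 11.45 and 11.37 at day 7 in EOM, and 11.42, 12.07 and 11.34 and then 11.89, 11.73 and 11.95 in leg. EOM began the week below leg on this probe set, and its change was larger by 1.49 ± 0.24 (adjusted p = 0.00141). The representative probe set of Ckmt2 did not pass that test (adjusted p = 0.130). Myh13 differed in leg by 0.39 ± 0.60, and the difference of changes of 2.70 did not pass (adjusted p = 0.489). For Fabp3 that difference was 1.26 (adjusted p = 0.0921), for Lpl 0.90 (adjusted p = 0.130) and for Lcn2 -2.99 (adjusted p = 0.215).

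**Figure D5:**
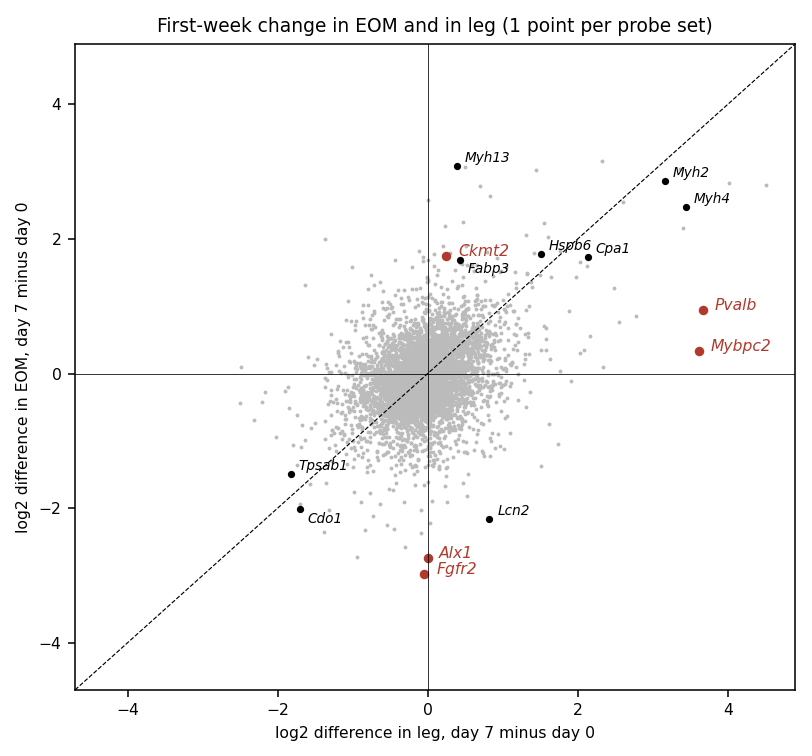
Log2 difference between day 7 and day 0 in EOM (vertical axis) against that in leg (horizontal axis), with 1 point for each of 6672 probe sets and a dashed line of equal change. The 5 probe sets past the test of the difference are red, among them Pvalb (3.67 in leg, 0.94 in EOM) and Mybpc2 (3.62 in leg, 0.34 in EOM); black points are other named genes, among them Myh13 (0.39 in leg, 3.09 in EOM).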

How the data were processed

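The authors deposited linear intensities, 1 for each probe set on each Affymetrix RG-U34A array (array type per the labels). All arrays have nearly the same trimmed mean. The sources used here do not name the software that produced these values. Intensities were floored at 100 and taken to log2. After 59 control probe sets were dropped, testing was limited to those exceeding the 40th percentile of all values (320.4) on 3 or more of the 36 arrays. Genes were named from the platform annotation of 2016. It gave 1 symbol to 7018 probe sets and several to 308, counted without dropping controls. Among the probe sets that are not controls, 1426 had no symbol. Of the 125 calls 14 had no single symbol and 26 were not the representative of their gene.

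All 36 arrays were fitted as 12 group means with limma 3.58.1 in R 4.3.3 (trended prior, 24 residual and 5.84 prior degrees of freedom), and the contrasts were EOM day 7 minus day 0, leg day 7 minus day 0 and their difference. The spread of a probe set was thus pooled over all groups, including groups at the floor. P-values were adjusted by Benjamini-Hochberg over all tested probe sets, with a threshold of 0.05. On simulated data the EOM comparison recovered 37% of 2-fold and 84% of 4-fold changes among 6672 probe sets (4.72% of calls false), and the difference between muscles 9% and 52%. The simulated noise was independent between arrays and was not floored. Effects shared by arrays, such as those numbered 3, were not simulated, so these shares do not carry over to the real calls. Tables were summarised with Python 3.11.15 and figures drawn with matplotlib 3.10.9.

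Named genes are the 12 largest differences each way and the largest differences between muscles. Added to these are up to 5 called members (or up to 2 others) of each list. A fixed set of myosin, receptor, growth and myogenic genes completes them. Genes outside the rule were chosen after their values were seen, as were some further probe sets and list members given as values. Sox10, Hadhb, Eci1, Ldhd and Slc22a3 are among these, although the text does not say so where it names them. The comparison, the 36 gene lists and the cell type markers were chosen with earlier results of these data known. Lists are given by counts and medians, with no test of the list. Alternatives covered scaling, floor, filter, bright probe sets, arrays in the fit, prior, replicate block and left-out arrays; leaving out the EOM arrays numbered 3 was added after seeing the data. The labels do not say that replicate numbers pair arrays, and the main fit did not treat them as pairs. Sequences before annotated starts are from RefSeq (GRCr8).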

Additional observations from a re-analysis of the deposited data

Results flagged for a closer look

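The first-week change differed between EOM and leg, by the test of the difference itself, for 5 probe sets. The change was lower in EOM by the following amounts on the log2 scale, given as EOM minus leg: -3.28 for Mybpc2, -2.94 for a probe set of Fgfr2, -2.75 for Alx1 and -2.74 for Pvalb. It was higher in EOM by 1.49 for a probe set of Ckmt2. With the 12 arrays of this test fitted alone the count was again 5, but only the probe sets of Pvalb and Fgfr2 were among the 5 above; the adjusted p in limma was 0.0746 for Mybpc2, 0.0776 for Ckmt2 and 0.203 for Alx1. By day 14 the EOM means of Mybpc2 and Pvalb stood at 11.05 and 14.33. Their day 45 means in EOM were 13.67 and 14.44.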

How the results depend on the processing

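Of 48 named genes that passed, none changed direction in 849 refits over 18 alternatives; 660 kept the call and 189 lost it, 34 of these when the 6 EOM arrays were fitted alone. Asph, Cdo1, Ckmt2, Hspb6, Il33 and Myh13 passed in every alternative that could be run for them. The 125 calls in EOM became 196 with quantile normalization, 233 with a floor of 300 (107 rose and 126 fell), 25 with the 6 arrays alone and 53 without the arrays numbered 3; leaving out single arrays gave 72 to 97, with 72 without day 7 replicate 3 and 76 without replicate 1 of either age. The 54 calls in leg became 19 with the 6 arrays alone and 32 to 58 without single arrays, 32 being without day 7 replicate 2. The 5 differences between muscles became 12 with quantile normalization, 38 with a floor of 300, 13 without a filter, 3 with a filter at the 60th percentile and 4 to 9 without single arrays, 9 being without EOM day 0 replicate 3. With the replicate number as a block there were 169 calls in EOM, all 125 among them, 70 in leg and 13 differences between muscles. The deviations of same-numbered arrays from their group means correlated at 0.092, 0.126 and 0.349 in EOM and at 0.133, 0.073 and 0.116 in leg. Those of arrays with different numbers ran from -0.303 to 0.219 in EOM and from -0.137 to 0.038 in leg. The labels name no pairing, and the main fit used none. Whether same-numbered arrays share a source was not tested. Named genes without a call changed sign in places: Myh3 was at -0.08 with quantile normalization and at -0.09 to 0.30 without single arrays, H19 at -0.76 to 0.08, Id1 at -1.04 to 0.02 and Myog at -0.22 to 0.05. Myog was at 0.07 with median scaling and without the arrays numbered 3. The causes of these shifts were not tested. At the floor of 100 a difference is a lower bound: Ldhd and Slc22a3 were at the floor on all 3 day 0 arrays, and 3 fallers had a day 7 array there.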
